A study of Homo sapiens with 6 samples.

Results

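Nonsense-mediated decay transcripts are spliced RNAs whose annotated stop codon lies upstream of an exon junction, and 1565 of them were expressed in these libraries. They were the rows of the deposited transcript table with the type nonsense_mediated_decay and at least 1 FPKM (fragments per kilobase of transcript, scaled to the mapped fragments of the library) in at least 3 of 6 libraries. They made up 10.1% of the 15542 rows of that type, among 208460 transcripts in all, and they came from 1274 genes. Measured levels chose them, so that they are expressed is not a result, and where a member reached 1 FPKM only in 1 group, the choice itself used the difference between the groups. All libraries came from PC9, a human lung adenocarcinoma line with an activating EGFR mutation. Per the labels, the cells overexpressed the transcription factor FOXM1 as the rs3742076_A form in 3 libraries (group A) or as the rs3742076_G form in 3 libraries (group G). All 6 received 100 nM of the EGFR inhibitor gefitinib for 24 h. No library of cells without FOXM1 overexpression, without gefitinib or with decay blocked was analysed here, and the labels name no clone, batch or separate culture, so p-values may measure technical spread only.

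Nonsense-mediated decay is a translation-dependent surveillance pathway. When a ribosome stops well upstream of an exon junction, the exon junction complex left there by splicing recruits UPF1 and the SMG proteins, and the RNA is cut or decapped and degraded. Many splicing regulators use the pathway on their own transcripts: an included or skipped "poison" segment brings an early stop, and the protein's own activity often drives that splicing event. A steady-state level therefore reflects both the making and the decay of such an RNA.

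The sequences of the members on which the results turn show how early stops arise. Each line runs from 12 bases shared with the most abundant coding transcript of the gene that has the same start codon, in lower case, into the bases of the member after it leaves that transcript, in capitals, and ends with the last base of the stop codon. They are from GENCODE release 29 (GRCh38), and each is the transcript's own strand, 5′ to 3′. The first 4 belong to regulators of splicing and were chosen for their levels or shares; the last 3 are members that passed a threshold between the groups.
SRSF3 ENST00000477442: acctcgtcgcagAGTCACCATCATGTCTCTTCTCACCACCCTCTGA
SRSF1 ENST00000581979: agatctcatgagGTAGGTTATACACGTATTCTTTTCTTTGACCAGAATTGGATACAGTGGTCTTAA
SRSF7 ENST00000443213: aagaagaagcagGTATTTATTTTAA
CLK1 ENST00000432425: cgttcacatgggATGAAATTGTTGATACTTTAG
ARPC2 ENST00000420201: atccagaatcagTCTTCTAA
CENPH ENST00000513575: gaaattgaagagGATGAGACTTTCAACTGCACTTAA
INTS11 ENST00000526797: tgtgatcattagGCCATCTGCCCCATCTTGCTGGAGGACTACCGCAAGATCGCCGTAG
For comparison, the coding transcript of SRSF3 (ENST00000373715) continues from the same 12 bases with other bases, and so does that of CLK1 (ENST00000321356).
SRSF3 coding: acctcgtcgcagATCTCCAAGAAGGAGAAG
CLK1 coding: cgttcacatgggAAGAGTCACCGAAGGAAA

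In SRSF3 the added segment gave 10 whole codons and then a TGA at chr6:36599852-36599854 on the plus strand, 548 bases before the last junction, and the reading frame ended at 124 codons in place of 164. In SRSF1 the transcript read into sequence outside the exons of the coding transcript shown and met a TAA at chr17:58005747-58005749 on the minus strand after 201 codons, 824 bases before the last junction. Another coding transcript of SRSF1 ends at the same stop. SRSF7 met its TAA at chr2:38749516-38749518 on the minus strand only 3 codons after it diverged. CLK1 held no base outside the exons of its coding transcript: its own junction skipped exon sequence and gave 6 codons before a TAG at chr2:200859726-200859728 on the minus strand, at 136 codons in place of 484. ARPC2 stopped at chr2:218234854-218234856 on the plus strand, 188 bases before its last junction. INTS11 stopped at chr1:1319388-1319390 on the minus strand, 226 bases before its last junction. CENPH stopped at chr5:69197074-69197076 on the plus strand, only 33 bases before its last junction, inside the 50 bases that the usual rule for decay asks for.

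Most members had the architecture that their annotated type implies. Of the 1565, 1539 were found by identifier in GENCODE release 29, and 1531 had the same position, exons and length. Among the 1526 with an annotated stop and at least 2 exons, 1518 (99.5%) had the stop 50 bases or more before the last junction. The same held for 82 of 10581 protein-coding transcripts past the same filter (0.775%); only 65.8% of the coding rows had a matching position, so that set is partial. The median distance from stop to last junction was 385 bases in members, with a middle range of 173 to 803, and the stop was followed by a median of 3 junctions. The open reading frame of members had a median of 104 codons, against 419 for the longest coding frame of the same genes. That longest frame was taken over all annotated coding transcripts of a gene, expressed or not. In 314 of 1531 members (20.5%) the annotation gives no start, beside 8.54% of coding transcripts, so some member frames may be incomplete.

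**Figure D1:**
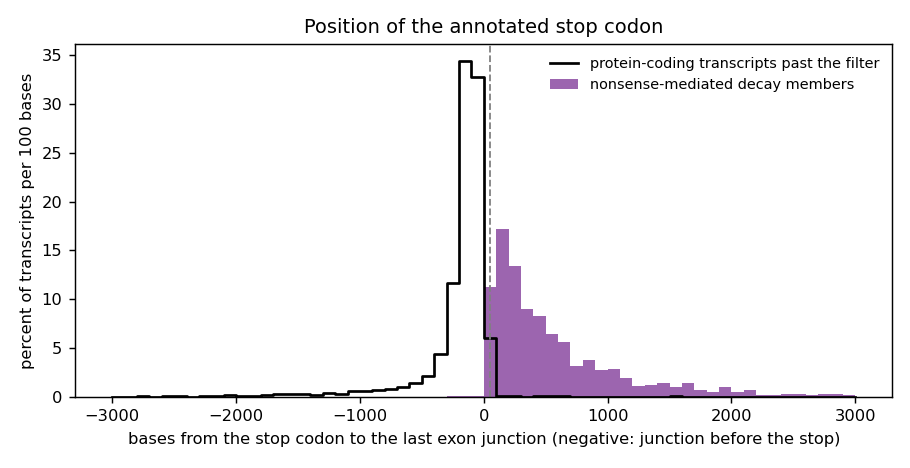
Distance in bases from the annotated stop codon to the last exon junction (x axis) against the percent of transcripts per 100 bases (y axis), for 1526 members (filled) and 10581 protein-coding transcripts past the same filter (line); the dashed line marks 50 bases. The members lie to the right of the dashed line, except for 8, and 42 members beyond 3000 bases are not drawn.

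Early stops arose by different routes. Of 1499 members whose gene had a coding transcript to compare with, 775 had a stop of their own within the exons of coding transcripts, as in CLK1, CENPH and INTS11. In 514 the stop lay in sequence outside those exons, as in SRSF3, SRSF7 and ARPC2, and in 9 it lay partly outside. The remaining 201 (13.4%) ended at the same stop as a coding transcript with a junction downstream of it, as in SRSF1 and TCF25. The evidence that separates a member from its relatives was uneven: 977 of 1531 had a junction that no other annotated transcript of the gene has, 655 had a base of their own, and 438 (28.6%) had neither. The levels of those 438 rest wholly on how the quantification divided shared reads.

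Members were mostly minor products, with a long upper tail. The mean level over 6 libraries had a median of 2.41 FPKM and a range of 0.544 to 442, and the mean share of the gene's summed transcript FPKM had a median of 12.6% with a middle range of 5.69% to 25.5%. Of the genes, 1049 had a single member, SMIM7 and SLC50A1 had 5 each, and PIGT, a subunit of the transamidase that attaches GPI anchors, had 7. In 812 of the 1274 genes the most abundant transcript was a coding one, and in 313 it was of the nonsense-mediated decay type.

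**Figure D2:**
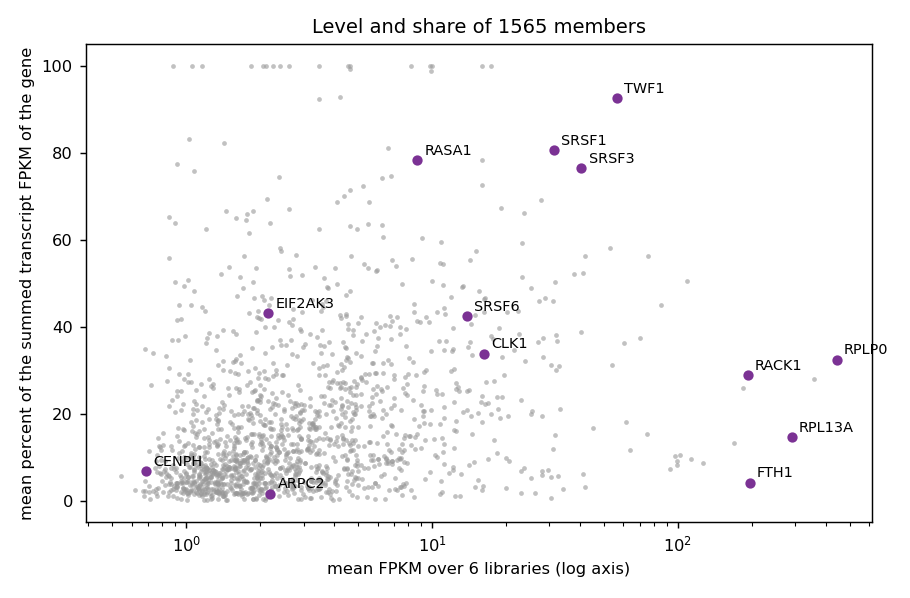
Mean level in FPKM over 6 libraries (x axis, log scale) against the mean percent of the gene's summed transcript FPKM (y axis) for the 1565 members, 1 point each, with named members in purple. RPLP0 at 442 FPKM has a mean share of 32.4%, while the TWF1 member holds 92.5%, SRSF1's 80.6% and SRSF3's 76.5% of the gene's FPKM.

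The most abundant members came from housekeeping genes, several of them ribosomal. RPLP0, the ribosomal stalk protein, gave the 2 highest. Its member ENST00000549098 stood at 704, 5.57 and 722 FPKM in the A libraries and at 550, 670 and 4.45 FPKM in the G libraries. Its member ENST00000547475 stood at 520, 27.8 and 396 FPKM in A and at 30.9, 616 and 563 FPKM in G. Each was thus much lower in 1 library of each group than in the other 2, and the groups overlapped, while the RPLP0 gene level differed by only -0.11 (log2, G minus A). A retained-intron transcript of RPLP0, ENST00000552461, was at 365 and 310 FPKM in libraries A2 and G3, where ENST00000549098 was at 5.57 and 4.45 FPKM, and at 8 FPKM or less in the other 4. RPL13A, a protein of the large subunit, was steady at 264, 337 and 320 FPKM in A and 267, 293 and 264 in G. RPL21 was at 258, 257 and 82.9 FPKM in A1, A3 and G1 and had no estimate in the other 3. Ribosomal protein genes have many processed pseudogenes, so how reads were divided among them is uncertain.

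As a group, 36 members from 25 ribosomal protein genes held 22.3% of all member FPKM, with a median share of only 2.02% of their gene. FTH1, the ferritin heavy chain, was at 221, 255 and 211 FPKM in A and at 195, 235 and 58.2 in G. GSTP1, a glutathione transferase, had 99.4, 138 and 276 FPKM in A and 3.57, 253 and 246 in G. RACK1, a scaffold protein of the small ribosomal subunit, ranged from 118 to 274 FPKM over the 6 libraries with overlapping groups. LDHA, lactate dehydrogenase A, had 392 FPKM in G2 and 289 in A1, 21.7 to 31.2 in 3 libraries and no estimate in A2.

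The spread within groups was wide. The median within-group SD of log2(FPKM + 1) was 0.57 in members, 0.37 in coding and 0.38 in retained-intron transcripts past the filter. In at least 1 library, 32.5% of members were under 0.1 FPKM, against 16% of coding transcripts. Members with no junction or base of their own had a median SD of 0.65, those with one had 0.55. The median level of members was lower than that of coding transcripts, 2.41 against 4.27 FPKM, and how far level and shared sequence set the spread was not tested.

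Some genes, in contrast, gave most of their FPKM to a member in every library. This held for 19 members in genes with a summed level of at least 5 FPKM, of which 11 had a junction or base of their own. TWF1, an actin-monomer-binding protein, had its member ENST00000547459 at 59.7, 53.4 and 56.1 FPKM in A and at 59.8, 53.1 and 57.5 FPKM in G. Those levels overlapped, and they were 90.8% to 93.9% of the gene, while its main coding transcript had 1.15 to 2.08 FPKM. RASA1, a GTPase-activating protein for RAS, had 73.6% to 82.9% of its FPKM in ENST00000515800, at 7.37 to 9.55 FPKM. SCAP, which escorts SREBP proteins from the endoplasmic reticulum, had 50.0% in A3 and 70.9% to 78.9% in the other 5 libraries. PC (pyruvate carboxylase), KLHDC2 (a substrate receptor of a cullin ubiquitin ligase) and PHF1 (a partner of Polycomb complex 2) had mean shares of 74.6%, 72.6% and 66.3%. The members of KLHDC2 and PHF1 have no junction or base of their own, so their shares rest wholly on how shared reads were divided. PC's member had no match in the annotation used, so its own junctions and bases were not analysed here. Members of UGT1A4 and of the read-through genes RBM14-RBM4 and MSH5-SAPCD1 are among the 19 too. These genes overlap other genes whose exons they share, so their shares are uncertain.

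Among 9 gene groups, splicing regulators had members in the largest share of their genes. Of 74 tested genes of a list of splicing regulators, 39 (52.7%) had a member, 51 members in all, against 9.72% of all genes with a transcript past the filter. Such genes also more often had an annotated row of the type, 78.4% against 37.0%, and the part of this in the result was not tested. None of the 51 passed the threshold between G and A in level or in share (smallest limma adjusted p 0.517 and 0.608), where 0.147% and 0.16% of all tested transcripts did. Of the 51, 26 were higher in G and 25 lower, with a median difference of 0.01 (log2), beside 0.03 over all transcripts tested. In level 5 of them, 9.8%, had groups that did not overlap, against 16% of all transcripts tested.

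SRSF3 and SRSF1, serine- and arginine-rich proteins that bind exons and recruit the spliceosome, had their members as the main transcript. SRSF3's was at 43.1, 39.7 and 42.4 FPKM in A and at 40.0, 40.6 and 36.9 in G, while its coding transcript ENST00000373715 had 3.11 to 6.14 FPKM. SRSF1's was at 32.1, 27.8 and 30.8 FPKM in A and 30.3, 34.2 and 33.3 in G, beside 3.41 to 7.01 FPKM of the coding ENST00000258962. In both genes the levels of the groups overlapped. The deposited gene levels were lower than the levels of these members. Over the 6 libraries they were 10.6 to 12.8 FPKM for SRSF3 and 11.9 to 17.3 FPKM for SRSF1. They are thus not sums of transcript FPKM, and the reason was not tested. As a share, SRSF1's member made up 84.6%, 83.0% and 81.6% in A and 77.3%, 78.0% and 79.3% in G; these groups did not overlap, and the difference of -4.86 percentage points did not pass (limma adjusted p 0.918). SRSF1's member has no junction or base of its own.

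SRSF6 split its FPKM between a coding transcript, at 17.0 to 19.9 FPKM, and its member ENST00000483871. The member was at 14.2, 12.6 and 12.1 FPKM in A and at 14.8, 14.6 and 14.5 FPKM in G. These levels did not overlap, but the difference did not pass (limma adjusted p 0.736), and the shares overlapped, at 38.3% to 43.5% in A and 43.0% to 46.2% in G. SRSF7's member was at 7.48, 1.38 and 10.3 FPKM in A and at 8.28, 9.09 and 8.73 in G, with A2 low and the rest close together. HNRNPD, an AU-rich-element binding protein, was bimodal: its member was at 1.78 and 5.16 FPKM in A1 and A3 and at 38.4 to 44.2 in the other 4 libraries. HNRNPA2B1, by contrast, kept its member within 9.82% to 12.1% of the gene in all 6 libraries. TRA2B, whose early-stop exon is a textbook case of this control, reached a mean of only 1.42 FPKM and 7.9% of its gene.

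Among other regulators, groups overlapped in some and not in others. PTBP1, a repressor of exons, had its member ENST00000585932 at 8.96, 25.8 and 26.2 FPKM in A and at 25.6, 1.86 and 10.2 in G. SRSF2 had ENST00000585202 at 6.30, 14.0 and 8.12 FPKM in A and at 6.94, 5.21 and 1.59 in G, with overlapping groups. LUC7L3, a protein of the U1 snRNP, had 3 members, the highest at 2.84 to 10.9 FPKM in A and 6.74 to 16.7 in G. Its member ENST00000504563 did not overlap, at 1.73, 1.25 and 2.70 FPKM in A and 4.65, 3.39 and 3.28 in G (limma adjusted p 0.586). SNRPB, a core Sm protein, had its member at 0.589 FPKM in A2 and 0.0920 in G2 and at 21.9 to 36.3 in the other 4 libraries. TIAL1, an RNA-binding protein of stress granules, was low but did not overlap, at 0.684, 0.503 and 0.555 FPKM in A and 1.32, 1.3 and 1.15 in G (limma adjusted p 0.533), and it reached 1 FPKM in G only. Steadier were RBM39, a splicing coactivator, whose member ENST00000403542 was at 6.80 to 7.98 FPKM in all 6 libraries, and HNRNPDL, whose member ENST00000502762 was at 3.37 FPKM in A1 and 6.79 to 7.52 in the other 5.

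**Figure D3:**
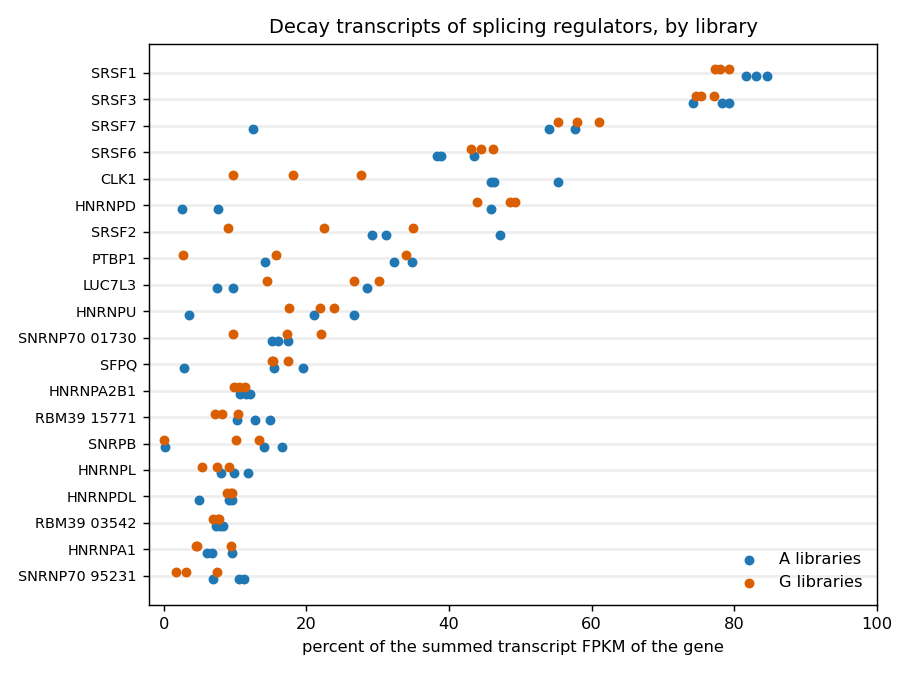
Percent of the gene's summed transcript FPKM held by each splicing-regulator member with a mean of at least 5 FPKM (x axis), 1 point per library, A in blue and G in orange; where a gene has several, the last 5 digits of the identifier are given. SRSF1 and SRSF3 lie above 74% in every library, and the G points of CLK1, at 9.71% to 27.7%, lie below its A points.

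CLK1, a kinase that phosphorylates SR proteins, had the smallest p among the regulators. Its exon-skipped member was at 26.3, 21.8 and 23.0 FPKM in A and at 4.16, 7.86 and 14.3 FPKM in G, so that every A library was above every G library. A retained-intron transcript of CLK1, ENST00000473565, ran the other way, at 1.43, 3.16 and 3.11 FPKM in A and 23.6, 18.7 and 5.76 in G. Neither difference passed the threshold: the member's was -1.47 ± 0.40 (SE) on the log2(FPKM + 1) scale with a limma adjusted p of 0.517, and the retained-intron transcript's adjusted p was 0.503. The CLK1 gene level differed by 0.21 (adjusted p 0.2). In A that gene level, at 15.4 to 15.8 FPKM, was below the member's own level, so it is not a sum of transcript FPKM.

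No gene of the decay machinery passed the gene-level threshold in limma, which 0.109% of all genes passed. Of 12 core decay factors 3 had an unadjusted p under 0.05, beside 17.3% of all genes, and 10 were higher in G, with a median difference of 0.06 (log2) beside 0.02 over all 12787 genes tested. UPF1, the central helicase, was at 17.8, 18.1 and 18.8 FPKM in A and 17.4, 18.3 and 18.4 in G, with overlapping groups. SMG1, the kinase that phosphorylates UPF1, was at 4.19, 3.26 and 3.61 FPKM in A and 5.08, 5.25 and 4.72 in G, without overlap (adjusted p 0.185). UPF2, the adaptor between UPF1 and the junction complex, was at 5.14, 5.09 and 5.55 FPKM in A and 6.48, 6.29 and 6.18 in G, also without overlap (adjusted p 0.194). Among 10 exon junction complex genes 2 were higher in G, among 14 release and decay factors 12 were, and among 15 RNAs known to rise when decay is blocked 7 were. None of the 3 lists had a gene past the threshold. At an unadjusted p under 0.05 they had 0, 4 and 2. The 4 were higher in G, and the 2, ATF4 and DDIT3, were lower. ATF4 was at 131, 132 and 133 FPKM in A and 118, 117 and 113 in G (limma adjusted p 0.165).

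Genes of the machinery had members of their own. DHX34, a helicase that helps activate UPF1, had ENST00000460681 at 1.31 to 3.33 FPKM in A and 1.56 to 3.54 in G, a mean share of 35.4%. In the junction complex ACIN1 had a pair of members, the higher at 6.87 to 18.2 FPKM, and MAGOHB and RBM8A had 1 each. UPP1, uridine phosphorylase, was the only gene of the list of RNAs known to rise that had members, 4 of them at mean shares of 6.82% to 13.1%.

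Between the groups, few members passed the threshold, and the share that did was near that of all transcripts. In level, 3 of 1565 members (0.192%) passed at a limma adjusted p under 0.05, beside 44 of 29990 transcripts tested (0.147%). All 3 were higher in G, as were 0.0767% of all transcripts. In share 3 of 1536 passed (0.195%) beside 44 of 27518 (0.16%), 2 higher and 1 lower in G, beside 0.0799% of all transcripts in each direction. All 5 members concerned reached 1 FPKM in the libraries of 1 group only, so that they had to differ to be members, and the counts support nothing. At an unadjusted p under 0.05 there were 110 members in level (7.03%, beside 7.81% of all) and 81 in share (5.27%, beside 5.38%). Over members the median level difference was 0.02 (log2, G minus A), beside 0.03 over all transcripts, and 807 of 1565 were above 0. In a fit of transcripts at 1 FPKM or more in all 6 libraries, 0 of 607 members passed in level (0.0118% of all) and 0 of 599 in share (0.0325% of all); 59 and 39 had an unadjusted p under 0.05, or 9.72% beside 9.67% of all in level and 6.51% beside 5.77% in share. These are bulk libraries, so fewer cells with a transcript and less of it per cell cannot be told apart.

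EIF2AK3, which encodes the endoplasmic reticulum stress kinase PERK, had its member and its coding transcript move in opposite directions. Its member ENST00000652099 (chr2:88556935-88627272, minus strand) was at 0.00399, 0.120 and 0.0241 FPKM in A and at 3.71, 4.47 and 4.61 in G. Its coding transcript ENST00000303236 was at 4.43, 3.45 and 3.89 FPKM in A and at 0.448, 0.396 and 0.584 in G. Neither pair of groups overlapped. The member reached 1 FPKM in the G libraries only, and the coding transcript in the A libraries only. Each thus had to differ between the groups to enter the fit. The member rose by 2.32 ± 0.16 (SE, log2(FPKM + 1) scale; limma adjusted p 0.0239) and the coding transcript fell by 1.73 (adjusted p 0.045), while the gene level differed by 0.16 (adjusted p 0.46). The member's share went from 0.0838%, 3.35% and 0.586% in A to 84.0%, 83.8% and 86.6% in G (limma adjusted p 0.0151). Without 1 library at a time, the level's adjusted p was 0.0674 to 0.106 and the share's 0.0495 to 0.0725.

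TCF25 and ARPC2 passed in level. TCF25's member ENST00000640279 was at 0.0105 FPKM in A1, had no estimate in A2 and A3, and was at 4.13, 5.25 and 6.80 FPKM in G. It has the coding frame of 676 codons whole, with a junction 163 bases after the stop. Its level rose by 2.65 ± 0.20 (SE, log2(FPKM + 1) scale; limma adjusted p 0.0295), beside a coding transcript, ENST00000263346, at 10.9, 7.23 and 4.02 FPKM in A and 0.359, 1.15 and 2.53 in G that did not pass (adjusted p 0.489). ARPC2 encodes a subunit of the actin-branching Arp2/3 complex. Its member had no estimate in A1, 0.309 and 0.0754 FPKM in A2 and A3, and 4.15, 4.81 and 3.84 FPKM in G. The groups did not overlap, and the level rose by 2.23 ± 0.18 (SE; limma adjusted p 0.0338) in a gene where the member is at most 3.83% of the FPKM. Its coding transcript was at 161, 40.1 and 151 FPKM in A and at 33.3, 31.3 and 35.2 in G, with an adjusted p of 0.605. Without 1 library at a time the adjusted p was 0.0557 to 0.124 for TCF25 and 0.0781 to 0.14 for ARPC2.

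CENPH and INTS11 passed in share only. CENPH, a kinetochore protein, had no estimate for its member in any A library and 1.22, 1.61 and 1.29 FPKM in G, which was 11.3%, 16.2% and 13.3% of the gene (limma adjusted p 0.0172). Its coding transcript was at 8.23, 11 and 8.39 FPKM in A and 6.64 to 8.34 in G. INTS11, the endonuclease of the Integrator complex, had its member at 1.67, 1.08 and 1.67 FPKM in A, or 5.53%, 3.29% and 4.32% of the gene, and no estimate in any G library (limma adjusted p 0.0255). INTS11 was the only one of the 5 to fall, and it and ARPC2 have no junction or base of their own. EIF2AK3's member was not found in GENCODE release 29, so its stop position and own junctions were not analysed here. Without 1 library at a time the adjusted p was 0.0616 to 0.0873 for CENPH and 0.0512 to 0.124 for INTS11.

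**Figure D4:**
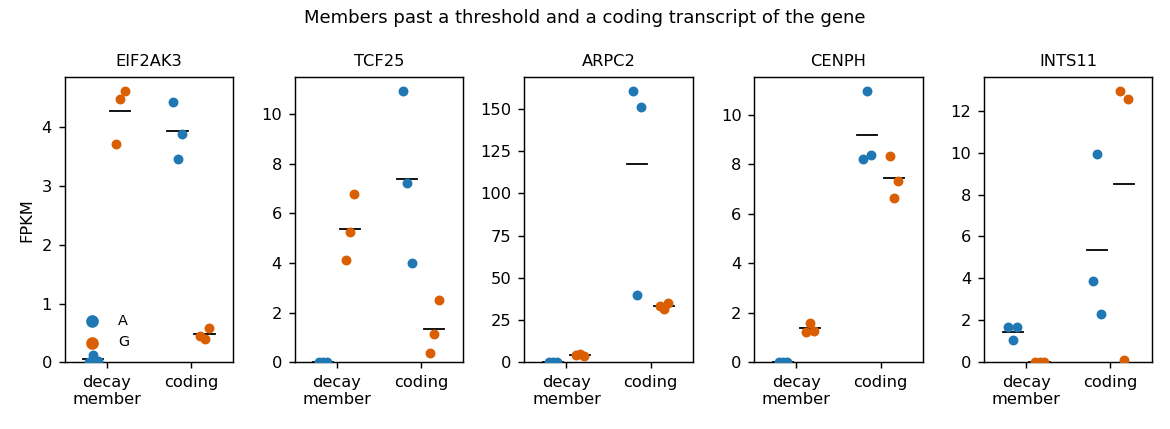
FPKM (y axis, from 0, with its own scale in each panel) of the 5 members past a threshold and of a coding transcript of the same gene, 1 point per library, A in blue and G in orange, with group means as lines. The EIF2AK3 member is at 3.71 to 4.61 FPKM in G and at 0.120 or less in A, while its coding transcript goes the other way.

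Most members whose groups did not overlap did not pass the threshold. In level there were 177 (11.3%, beside 16% of all transcripts tested), 109 higher and 68 lower in G beside 9.59% and 6.4% of all. In share there were 171 (11.1%, beside 11.8%). These counts include the members past the threshold. In level they also include the 21 members at 1 FPKM in the G libraries only and the 14 in the A libraries only, whose groups the rule forces apart. PCBP2, a poly(C)-binding protein, had ENST00000546652 at 7.19, 4.64 and 2.09 FPKM in A and 64.2, 54.4 and 53.2 in G, above 1 FPKM in all 6 libraries. Every G library stood far above every A library, with a difference of 3.47 ± 0.37 (SE, log2(FPKM + 1) scale; limma adjusted p 0.0691), and the gene level differed by -0.10. STRN3, a regulatory subunit of protein phosphatase 2A complexes, had ENST00000555358 at 0.578 FPKM in A1, no estimate in A2 and A3 and 4.88, 5.13 and 4.41 FPKM in G (adjusted p 0.0629). BRD8, a bromodomain protein of an acetyltransferase complex, had ENST00000512140 without an estimate in A and at 3.51, 8.48 and 6.33 FPKM in G (adjusted p 0.0753). The members of STRN3 and BRD8 reached 1 FPKM in the G libraries only.

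Lower in G were SREBF1, CYP2J2, UBE2N and MPV17, among others. SREBF1, a regulator of lipid synthesis, had ENST00000578469 at 2.55, 3.25 and 2.87 FPKM in A and 0.314, 0.366 and no estimate in G (limma adjusted p 0.0852). CYP2J2, an epoxygenase, had ENST00000468257 at 3.97, 3.55 and 1.9 FPKM in A and at 0.109 or without an estimate in G (adjusted p 0.0994). Both, and the UBE2N member below, reached 1 FPKM in the A libraries only, so the rule forced their groups apart. UBE2N, a ubiquitin-conjugating enzyme, had ENST00000549490 at 3.07, 2.87 and 2.98 FPKM in A and at most 0.797 in G, beside a coding transcript at 3.20 to 4.34 FPKM in all 6 (adjusted p of the member 0.235). MPV17, a protein of the inner mitochondrial membrane, had ENST00000426513 at 18.5, 18.1 and 18.5 FPKM in A and 13, 12.8 and 12.2 in G, a difference of -0.51 ± 0.09 (SE; adjusted p 0.265). Its share was 54.4% to 58.1% in A and 39.9% to 41.8% in G, which did not pass (limma adjusted p 0.912). MPV17's member has no junction or base of its own.

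In YWHAB, NASP and MUC16 the gene's other transcripts also differed widely among libraries. YWHAB, a 14-3-3 protein, had ENST00000479421 at 3.93, 1.21 and 0.962 FPKM in A and at 10.7, 11.6 and 17.8 in G, and its coding transcript ENST00000372839 at 135, 55.7 and 83.5 FPKM in A and 19.9, 22.6 and 20.3 in G. The groups did not overlap in either, in opposite directions, and neither passed (limma adjusted p 0.256 and 0.202). NASP, a histone chaperone, had ENST00000453748 with 1.07 FPKM or less in A and at 15.9, 5.52 and 5.40 FPKM in G (adjusted p 0.273). MUC16, a large membrane mucin, had ENST00000601404 at 16.3, 7.01 and 7.20 FPKM in A and at 1.42, 0.300 and 1.22 in G (adjusted p 0.223). KTN1, a kinesin-binding membrane protein, had ENST00000553360 at 1.57, 0.220 and 1.32 FPKM in A and at 4.68, 4.01 and 4.50 in G (adjusted p 0.394). CCNC, the cyclin of the Mediator kinase module, had ENST00000326298 at 2.11, 7.53 and 5.75 FPKM in A and at most 0.726 in G (adjusted p 0.364). Each of these kept its groups apart, and none passed. CCNC's member reached 1 FPKM in the A libraries only, so the rule forced its groups apart.

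**Figure D5:**
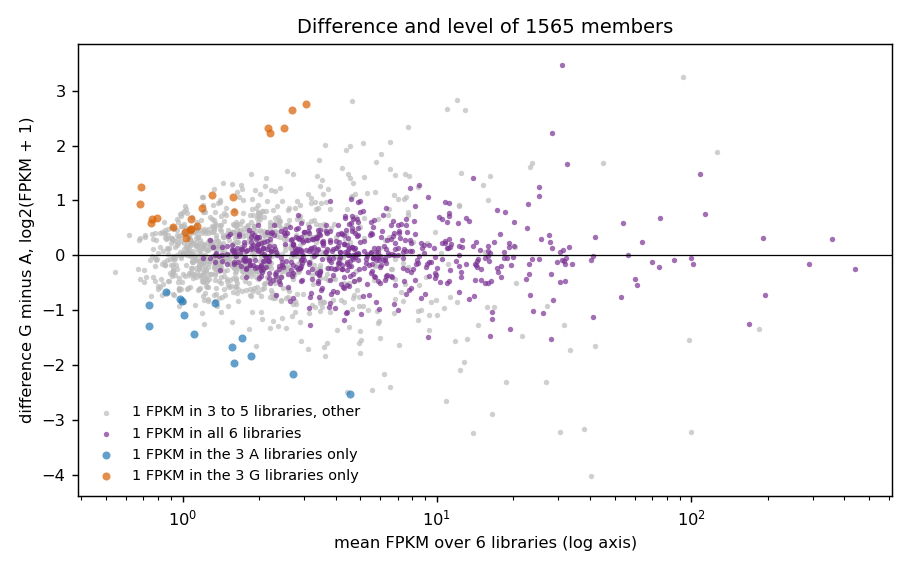
Mean level in FPKM over 6 libraries (x axis, log scale) against the difference G minus A on the log2(FPKM + 1) scale (y axis) for the 1565 members, coloured by the libraries in which they reached 1 FPKM. The 21 members at 1 FPKM in the G libraries only lie above 0 and the 14 at 1 FPKM in the A libraries only lie below it, as the rule that chose them forces.

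In 8 gene groups defined by name, the splicing regulators and the rest, the median difference of members ran from -0.19 in ribosomal proteins to 0.11 in solute carriers and ATPases (log2, G minus A). Of the 36 ribosomal members 11 were higher in G, 4 had groups that did not overlap (11.1%, beside 16% of all transcripts tested), all lower in G (beside 6.4% of all), and 0 passed either threshold in limma. Of 43 members of translation factors and the mitochondrial ribosome 23 were higher in G, and 6 (14.0%, beside the same 16%) did not overlap. EIF2AK3, a stress kinase and not a translation factor, is counted here by its name. Of 33 members of cell cycle and genome maintenance genes, the programme FOXM1 is known for, 16 were higher in G. CENPH was the single one past a threshold, in share, beside 0.16% of all transcripts. Its member reached 1 FPKM in the G libraries only and had to differ to be a member, so this 1 call supports nothing.

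The members' total differed by less than the spread between libraries. Their summed FPKM was 2.43%, 2.01% and 2.22% of all transcript FPKM in A and 2.31%, 2.48% and 2.03% in G, or 2.22% ± 0.21 and 2.27% ± 0.23 (SD, n = 3), with overlapping groups. Rows of the type at 1 FPKM or more numbered 1578, 1564 and 1578 in A and 1624, 1658 and 1640 in G, without overlap. All transcripts at 1 FPKM or more did the same, at 28422 to 29134 in A and 29757 to 30721 in G, and the part of this in the members' count was not tested. Retained-intron transcripts held 7.43% to 7.73% of the FPKM in A and 8.09% to 8.61% in G.

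The rest of the series bears on these values as follows. FOXM1 itself was at 25.5, 10.5 and 10.1 FPKM in A and 14.6, 14.3 and 14.0 in G, with A1 high and the groups overlapping. An exact two-sided permutation test gave p = 1, but with 3 against 3 it cannot go below 0.1, so it could not have passed. Epithelial markers such as EPCAM (109 to 120 FPKM) and KRT19 were high; of 11 markers of leukocytes, fibroblasts and endothelium the highest was COL1A1, at 1.63 to 2.25 FPKM, and DCN had no estimate in any library. Depth was estimated at 19760000 to 23280000 read-pair equivalents per library, searched for only within a preset window.

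Members near the threshold were low and uneven. Just inside stood AIF1L, NTMT1 and ADAT1, whose level in the library that decided was 1.00 FPKM for each; NTMT1 was at 2.13, 1.31 and no estimate in A and at no estimate, 0.481 and 1.00 FPKM in G. Just outside stood OSBPL2, ATRX and SLC27A1, each at 1.00 FPKM after rounding. In the authors' deposited table, 26 members carried the mark for significance, 17 of them higher in G, which is 1.66% of members beside 1.39% of all transcripts past the filter. The authors' deposited table gives 8 members a q-value under 0.05, or 0.511% of members, beside 0.337% of transcripts past the filter. In the authors' deposited table these 8 are EIF2AK3, TCF25, BRD8 and PCBP2, higher in G, and INTS11, AL121594, CYP2J2 and MUC16, lower in G. CENPH has a p-value of 1 in the authors' deposited table.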

How the data were processed

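RNA was measured as poly(A)-selected, strand-marked libraries of PC9 cells, 3 per group. Trimming, alignment and assembly tools named in the submitters' processing notes are cutadapt 1.9, HISAT2 2.0.4 and StringTie 1.3.4d, and no source used here gives the strand setting or annotation release. The notes name a mouse build, which the human identifiers contradict, so positions are those of the deposited table, on GRCh38. The authors deposited FPKM per transcript and gene, with 0.0001 for no estimate, and, per the file headers, a ratio of group means on a linear and a log2 scale with p-values and q-values. Of low values of long single-exon genes, 30.1% to 32.4% were whole reads within 0.02, so no count model was used.

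Levels were taken as log2(FPKM + 1), which understates changes of low transcripts, and shares as the arcsine square root of transcript FPKM over the gene's summed transcript FPKM. Transcripts with 1 FPKM in at least 3 libraries (29990) entered limma 3.58.1 (R 4.3.3) with an intensity trend. The share fit needed a gene with at least 2 transcripts that had an estimate in at least 1 library, and a summed 1 FPKM in every library (27518). Adjustment was Benjamini-Hochberg over all tested, with a threshold of 0.05. Genes (12787) were tested alike, on the deposited gene levels, which are not the sums of transcript FPKM. Shares of a gene always refer to its summed transcript FPKM. On simulated data the level fit recovered 0%, 40.2% and 65.3% of log2 changes of 1, 2 and 3, and the share fit 2% and 28.5% of changes of 0.2 and 0.4 on the arcsine scale. Members and lists were chosen with earlier results of these data known. Named members were those past a threshold, the 12 highest in level and in share (gene sum at least 5 FPKM), those of decay factors and splicing regulators, up to 10 per direction with the smallest p among non-overlapping ones, and those nearest the threshold; SLC50A1, SMIM7, PIGT, UPP1, junction complex members, SCAP, PC, KLHDC2, PHF1, MSH5-SAPCD1 and the partner transcripts were added after their values were seen. Alternatives varied the filter, pseudocount, scaling, trend, weights, share transform and the libraries left out.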

Additional observations from a re-analysis of the deposited data

How the results depend on the processing

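The calls rest on the filter and on each library. Without a filter on low values, 7 transcripts and 0 members passed in level, 10 and 1 in share, and 1 gene passed. With 1 FPKM in all 6 libraries, 2 transcripts and 0 members passed in level, and 5 and 0 in share. With a pseudocount of 0.1, 23 transcripts and 1 member passed in level, and with 0.01, 0 and 0. With the share in percentage points 0 transcripts and 0 members passed, and with its logit 6 members did. Leaving out 1 library at a time gave 7 to 37 transcripts and 0 to 2 members in level, 0 to 33 and 0 to 2 in share, and 5 to 20 genes; whichever library was left out, both member counts were under the 3 of the full data. Of 14 genes, 4 passed without the trend, 9 with median-ratio size factors and 6 with quantile normalization. The summed share of members, G minus A, was 0.049 percentage points, and -0.055 to 0.17 without 1 library. The FOXM1 difference of 0.03 (log2) was -0.16 without A replicate 2 and -0.19 without A replicate 3, within a range of -0.19 to 0.44; the cause was not tested. Over 47 values of named members and 663 combinations of value and alternative, 55 lost the threshold, 5 gained it and 0 changed sign. Only values past the threshold could lose it. In level, EIF2AK3 and ARPC2 each kept it in 5 of 15 alternatives, and TCF25 in 6 of 15. In share, EIF2AK3 kept it in 5 of 12, CENPH in 4 of 13 and INTS11 in 3 of 13. These named members had groups that did not overlap in level or in share, so a change of sign was unlikely from the start.

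With the replicate number as a block, 0 transcripts, 0 members and 0 genes passed in level and 0 transcripts and 0 members in share. The labels do not say that numbers pair libraries, and the deviations of same-numbered libraries correlated at 0.073, 0.015 and 0.040. In simulated data at 3 libraries per group, 0% of log2 changes of 1 in a transcript's level were recovered, beside 80.7% in a gene's level; depth and replicate number were not varied.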
